A study of Mus musculus with 7 samples.

Results

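The 40 genes described here encode proteins of the connective tissue that surrounds intestinal macrophages: secreted matrix proteoglycans, components of elastic fibres, the contractile apparatus of smooth muscle, binding proteins for insulin-like growth factors, growth factor receptors and other matrix or membrane proteins. They were chosen by their known tissue roles and with the log2 differences between the genotypes on these same arrays already known. Those differences are therefore given as a description. For each gene, the probe sets annotated with its symbol alone were taken, and the one with the highest mean over the arrays was kept. This gave values for 39 of the 40 genes, among 22180 genes in all. Fibrillin-1 (Fbn1), which builds the microfibrils of elastic fibres, had no probe set of this kind and was not analysed here. Of the 39 genes, 7 were small leucine-rich proteoglycans, 7 were elastic fibre genes, 6 were contractile genes, 4 encoded insulin-like growth factor binding proteins, 4 encoded receptors or surface proteins, 5 encoded other matrix proteins and 6 had other roles.

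Total RNA came from macrophages sorted from the colon lamina propria of 4 Rictor fl/fl LysM+/cre samples and 3 Rictor fl/fl LysM+/+ samples, with 1 Affymetrix Mouse Gene ST array per sample. All mice drank 5% DSS (dextran sulphate sodium, which damages the lining of the colon) over 5 days to bring on colitis, and then plain water over 3 days. The sort took CD45+ cells that were positive for CD11b, CD64 and MHCII and negative for Ly6C. Rictor is an essential subunit of the kinase complex mTORC2, and both groups carried the floxed alleles. The cre recombinase was expressed from the lysozyme M locus (LysM, Lyz2), which is active in macrophages, monocytes and neutrophils. Neither group carried cre without floxed Rictor, so an effect of cre itself and an effect of the recombined allele cannot be told apart. The labels do not say whether each sample came from a separate mouse, nor give age or sex. The spread given below is therefore that between these samples, and the number of arrays limits the precision.

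In the gut wall, fibroblasts secrete small leucine-rich proteoglycans, which bind collagen fibrils and set their spacing, and smooth muscle cells contract through actin and myosin filaments. Elastic fibres consist of an elastin core laid on a scaffold of microfibrils, to which fibulins and microfibril-associated proteins attach. Macrophages are not known as a main source of these proteins.

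Values are log2 signals. The Rictor probe set read 7.72, 7.76, 8.25 and 7.80 on the LysM+/cre arrays, against 7.76, 7.74 and 7.80 on the LysM+/+ arrays. The groups overlapped, with a difference (LysM+/cre minus LysM+/+) of 0.12 ± 0.13 (SE). The sources used here do not place its probes relative to the deleted part of the gene, so this does not check the labels. Lyz2, the locus that carries cre, differed by -0.13 ± 0.13. The 20 measured macrophage markers had a mean log2 signal of 11.16 to 11.52 on the LysM+/cre arrays and of 11.19 to 11.39 on the LysM+/+ arrays, and their median difference was 0.04. They did not all read alike: 9 had a lower and 11 a higher mean with cre, and Fcgr1 (CD64, used in the sort, 0.97 ± 0.26) and Aif1 (0.67 ± 0.20) were at least 1.5-fold higher at an unadjusted p under 0.05. Fcgr1 read 11.10, 10.78, 10.28 and 10.75 in LysM+/cre and 10.28, 9.49 and 9.49 in LysM+/+. LysM+/cre array 3 overlapped LysM+/+ array 1. An unadjusted p under 0.05 (limma) was reached by 5 of the 20 markers with a higher mean, beside 6.56% of all genes. It was reached by 1 with a lower mean, beside 4.93% of all genes. The 5 included Itgam (CD11b, also used in the sort, 0.53 ± 0.19). Correlations over all probe sets ran from 0.972 to 0.982 between arrays of 1 genotype and from 0.968 to 0.977 between genotypes.

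Most stromal genes read lower with cre. Of the 39 genes, 34 had a lower mean on the LysM+/cre arrays than on the LysM+/+ arrays, or 87.2%, where 48.7% of all 22180 genes did. The median difference was -0.53 and the mean difference -0.61, against a median of 0.0044 over all genes. A mean at least 1.5-fold lower with cre was found for 18 of the 39, beside 2.55% of all genes, and an unadjusted p under 0.05 with a lower mean for 16, beside 4.93% of all genes (limma). A difference of at least 1.5-fold in either direction at an unadjusted p under 0.05, the 1.5-fold rule below, was met by 13 of the 39 genes, all lower with cre, beside 2.26% of all genes in either direction and 1.46% in the lower direction. For 11 of the 39 genes the values of the genotypes were fully apart, again all lower with cre, beside 8.79% of all genes in either direction and 3.56% in the lower direction. Since the genes were listed with these results known, nothing is read from the counts. After Benjamini-Hochberg adjustment over all genes, 0 of the 39 and 0 of the 22180 genes had an adjusted p under 0.05 in limma. The smallest adjusted p over all genes was 0.195, and 2549 genes had an unadjusted p under 0.05. In bulk RNA, fewer cells of a type and less RNA per cell cannot be told apart. The sort took cells positive for CD45, CD11b and CD64. Whether stromal cells or their RNA remained in the samples, and which cells gave these signals, was not tested.

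**Figure D1:**
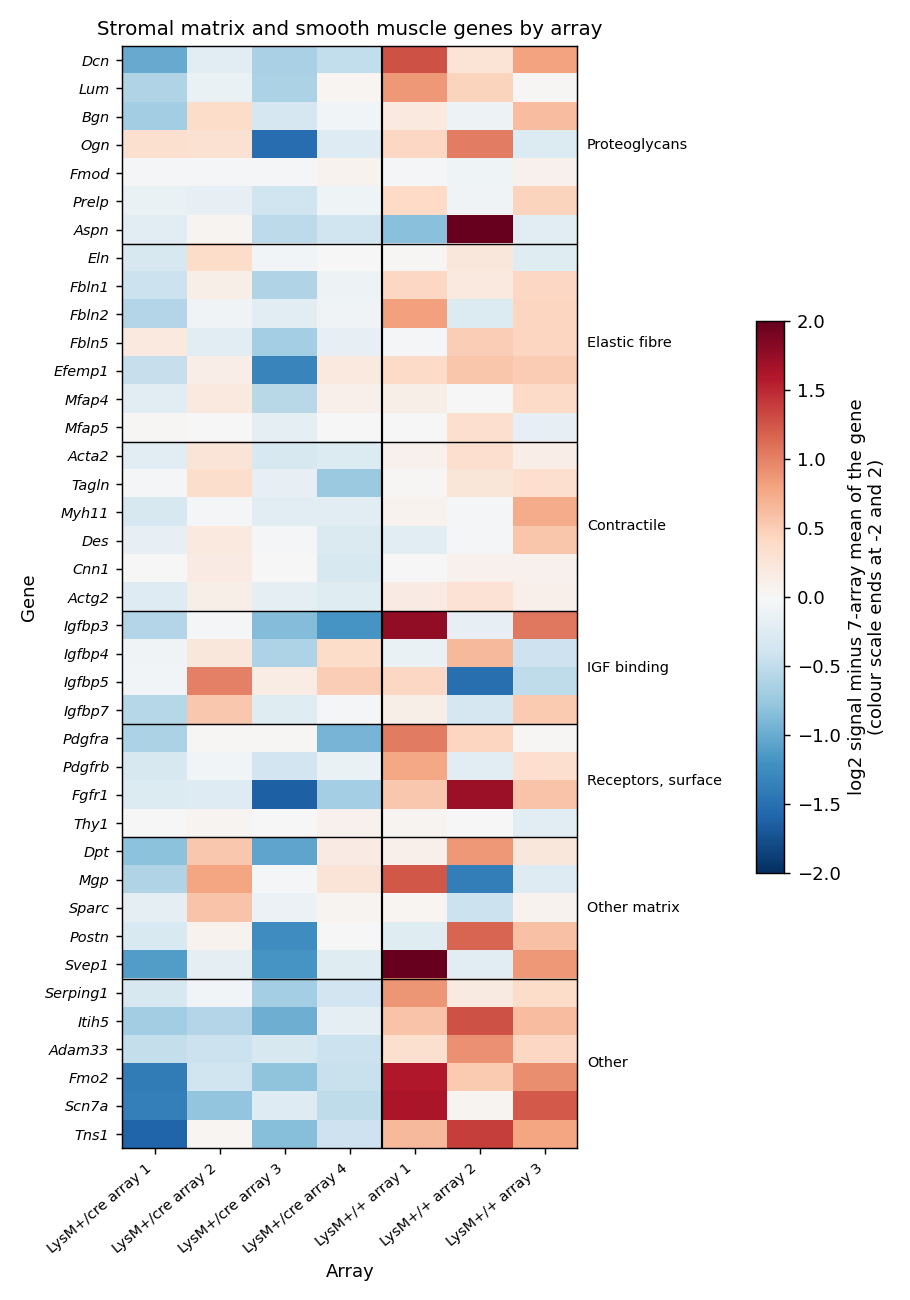
Log2 signal of the 39 measured genes on each array (columns, LysM+/cre to the left of LysM+/+) minus the mean of the gene over the 7 arrays, by role. The colour scale ends at -2 and 2. Blue cells gather on LysM+/cre arrays 1 and 3, and red cells on the LysM+/+ arrays.

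The lowest value of a gene fell on LysM+/cre array 3 for 17 of the 39 genes and on LysM+/cre array 1 for 11, as the heat map by array shows. The highest value fell on a LysM+/+ array in most cases: array 2 held 14, array 1 held 11 and array 3 held 7. LysM+/cre array 2 held the highest value of 6 genes and the lowest of 0. Over all genes, each array held between 11.4% and 17.1% of the highest values and between 12.1% and 19.0% of the lowest. LysM+/cre arrays 3 and 1 held 12.8% and 15.1% of the lowest.

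Among the 7 small leucine-rich proteoglycans, 6 had a lower mean with cre, with a median difference of -0.63. Decorin (Dcn), which binds collagen fibrils and transforming growth factor beta, differed most. Its log2 signals were 9.64, 10.45, 10.01 and 10.17 on the LysM+/cre arrays, against 11.93, 10.94 and 11.47 on the LysM+/+ arrays. All 4 LysM+/cre values lay below all 3 LysM+/+ values, and the mean was lower by 2.59-fold (-1.38 ± 0.27, SE). Lumican (Lum), a keratan sulphate proteoglycan of collagen fibrils, read 5.50, 5.96, 5.46 and 6.13 in LysM+/cre and 6.96, 6.55 and 6.12 in LysM+/+. Only LysM+/cre array 4 reached into the LysM+/+ range, at its lower end, and the difference was -0.78 ± 0.25. Without LysM+/+ array 1 that difference was -0.57.

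Prelp, a proteoglycan that anchors collagen to basement membranes, read 6.49, 6.45, 6.22 and 6.52 in LysM+/cre and 7.02, 6.55 and 7.07 in LysM+/+. The groups did not overlap, but LysM+/+ array 2 stood only just above the highest LysM+/cre array, and the difference was -0.46 ± 0.14. Biglycan (Bgn), a close relative of decorin, read 9.03, 10.09, 9.39 and 9.67 in LysM+/cre and 9.93, 9.63 and 10.34 in LysM+/+. These ranges overlapped broadly, and the difference of -0.42 ± 0.27 changed to -0.23 without LysM+/+ array 3 and to -0.25 without LysM+/cre array 1. Osteoglycin (Ogn), which also takes part in collagen fibril formation, differed by -0.68 ± 0.52. Its lowest value, 4.76 on LysM+/cre array 3, carried much of this, since the difference was -0.26 without that array, and it was -0.36 without LysM+/+ array 2.

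Asporin (Aspn), which binds collagen and transforming growth factor beta, read 3.98, 4.25, 3.67 and 3.80 in LysM+/cre and 3.35, 6.34 and 3.98 in LysM+/+. A single array, LysM+/+ array 2, stood far above the others. The difference of -0.63 ± 0.66 turned to 0.26 without it, and was -1.24 without LysM+/+ array 1. Fibromodulin (Fmod), a further collagen-binding proteoglycan, lay between 5.28 and 5.38 in LysM+/cre and between 5.23 and 5.40 in LysM+/+, with no difference beyond its SE (0.00 ± 0.06). Both genes, with Mfap4 and Actg2, had mean signals below that of the median gene, where array differences are often compressed. Second, dimmer probe sets gave a difference of -0.04 for Bgn, -0.0014 for Prelp and 0.07 for Svep1, where the kept ones gave -0.42, -0.46 and -1.59.

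**Figure D2:**
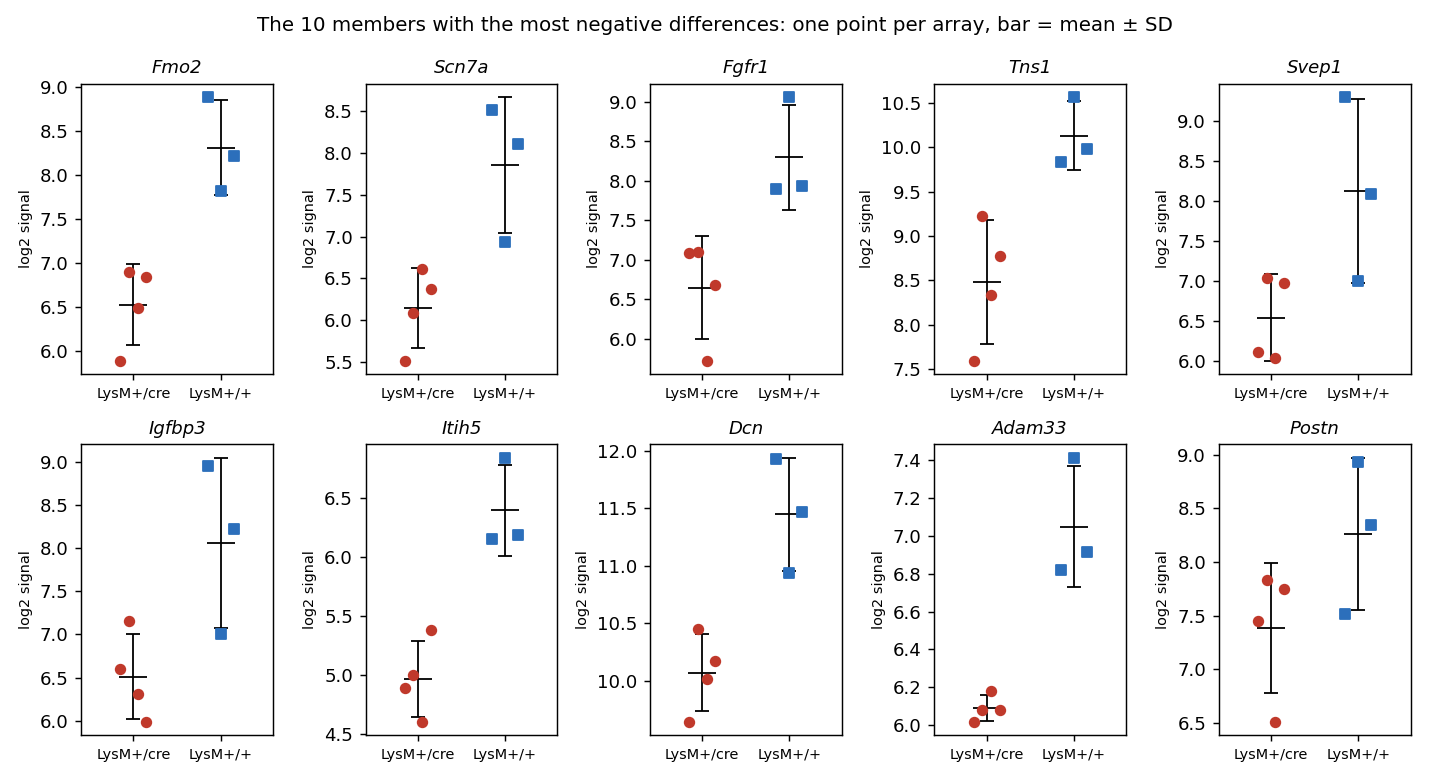
Log2 signal per array for the 10 genes with the most negative differences, LysM+/cre (4 circles) to the left of LysM+/+ (3 squares), with the mean and SD as bars. For Fmo2, Scn7a, Fgfr1, Tns1, Itih5, Dcn and Adam33 every LysM+/cre array lies below every LysM+/+ array, and for Svep1, Igfbp3 and Postn the groups overlap. The vertical axes differ between genes and do not start at 0.

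Several proteoglycan genes lie side by side in the mouse genome, in RefSeq's gene order of assembly GRCm38.p6. Dcn and Lum are direct neighbours among protein-coding genes on chromosome 10, and their signals correlated with r = 0.85 over the 7 arrays and with r = 0.57 after the genotype means were removed. The next pairs of neighbours there, Lum with Kera and Kera with Epyc, had r = -0.15 and -0.42, and 0.40 and -0.68 within genotypes. On chromosome 1, Optc, Prelp and Fmod follow each other, with r = -0.06 for Optc with Prelp and 0.46 for Prelp with Fmod. Within genotypes these were -0.23 and 0.77. On chromosome 13, Ecm2, Aspn, Omd and Ogn follow each other, and the pairs of neighbours there had r = 0.10, -0.08 and 0.23. Within genotypes they had r = -0.15, 0.03 and 0.44. Of the proteoglycans of this family that were not listed, 10 were measured: 4 had a lower mean with cre, 0 passed the 1.5-fold rule, and their median difference was 0.03. All of them except Podn had a mean signal below that of the median gene, where array differences are often compressed. The median of their mean signals was 4.65, against 5.55 over all genes. Kera, Epyc, Optc, Ecm2 and Omd, in the pairs of neighbours above, were among these dim genes. The smallest unadjusted p among them belonged to Ecm2 (-0.27 ± 0.14), Podn (-0.25 ± 0.15) and Nyx (0.13 ± 0.10).

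All 7 elastic fibre genes had a lower mean with cre, with a median difference of -0.52 and a mean of -0.42. Efemp1, a fibulin family member of the extracellular matrix, read 6.55, 7.15, 5.68 and 7.20 in LysM+/cre and 7.39, 7.56 and 7.52 in LysM+/+. The groups did not overlap, yet LysM+/cre arrays 2 and 4 came close to the tight LysM+/+ values. The difference was -0.84 ± 0.36, and -0.52 without LysM+/cre array 3. Fbln1, a fibulin that binds fibronectin and elastic fibres, read 6.98, 7.53, 6.81 and 7.31 in LysM+/cre and 7.83, 7.61 and 7.84 in LysM+/+. Again LysM+/cre array 2 lay just below the lowest LysM+/+ array, with a difference of -0.60 ± 0.18. Of all 39 genes, Fbln1 followed the mean of the others most closely, with r = 0.98 over the 7 arrays and r = 0.95 within genotypes.

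Fbln2, a fibulin of basement membranes and vessel walls, read 6.14, 6.66, 6.501 and 6.66 in LysM+/cre and 7.55, 6.47 and 7.16 in LysM+/+. LysM+/+ array 2 lay within the LysM+/cre range, and the difference of -0.57 ± 0.26 became -0.86 without it and -0.32 without LysM+/+ array 1. Fbln5, which ties elastin to microfibrils and cells, read 6.34, 5.93, 5.46 and 5.98 in LysM+/cre and 6.11, 6.63 and 6.58 in LysM+/+. LysM+/cre array 1 overlapped LysM+/+ array 1, and the difference was -0.52 ± 0.22. Elastin itself (Eln) lay between 5.86 and 6.54 in LysM+/cre and between 5.94 and 6.41 in LysM+/+, with a difference of -0.01 ± 0.18. The microfibril-associated genes Mfap4 and Mfap5 differed by -0.29 ± 0.20 and -0.10 ± 0.13, with overlapping groups. The 4 fibulin family genes had the most negative differences of the group and Eln the least, a contrast that was not tested.

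The promoter windows of these 4 fibulin family genes are shown because these genes had the most negative mean differences of the elastic fibre group. Only Fbln1 among them passed the 1.5-fold rule. A further reason is that all 4 windows hold GGGCGG, the core letters of a GC box, on either strand. These 4 were the only elastic fibre genes with a window. Eln, Mfap4 and Mfap5 were therefore not searched, and no comparison within the group was possible. Windows are RefSeq's for GRCm38.p6, from 250 bases before to 50 bases after the start, 5′ to 3′ on the strand of the gene, with the matches in capitals. Over the arrays the pairs of these genes had r between 0.09 (Fbln2 with Fbln5) and 0.91 (Fbln1 with Efemp1). The windows lie at chr15:85205758-85206057 (Fbln1, plus strand), chr6:91212514-91212813 (Fbln2, plus strand), chr12:101819070-101819369 (Fbln5, minus strand) and chr11:28852955-28853254 (Efemp1, plus strand).
Fbln1: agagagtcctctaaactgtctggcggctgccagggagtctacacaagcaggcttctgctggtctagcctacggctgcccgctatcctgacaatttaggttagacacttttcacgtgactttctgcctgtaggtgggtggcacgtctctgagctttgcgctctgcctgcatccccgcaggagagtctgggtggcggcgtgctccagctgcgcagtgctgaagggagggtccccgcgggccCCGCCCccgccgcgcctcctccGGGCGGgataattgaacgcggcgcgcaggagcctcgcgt
Fbln2: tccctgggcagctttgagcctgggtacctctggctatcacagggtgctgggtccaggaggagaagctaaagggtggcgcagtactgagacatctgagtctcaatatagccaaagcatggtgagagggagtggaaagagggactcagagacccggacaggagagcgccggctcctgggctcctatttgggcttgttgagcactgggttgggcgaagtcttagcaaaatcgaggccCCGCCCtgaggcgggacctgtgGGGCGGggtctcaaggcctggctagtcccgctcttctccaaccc
Fbln5: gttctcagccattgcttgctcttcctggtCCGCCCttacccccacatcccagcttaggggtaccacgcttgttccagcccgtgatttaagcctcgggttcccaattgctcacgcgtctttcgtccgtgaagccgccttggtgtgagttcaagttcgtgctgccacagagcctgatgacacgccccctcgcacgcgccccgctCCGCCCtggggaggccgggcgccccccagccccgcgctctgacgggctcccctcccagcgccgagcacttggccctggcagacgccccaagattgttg
Efemp1: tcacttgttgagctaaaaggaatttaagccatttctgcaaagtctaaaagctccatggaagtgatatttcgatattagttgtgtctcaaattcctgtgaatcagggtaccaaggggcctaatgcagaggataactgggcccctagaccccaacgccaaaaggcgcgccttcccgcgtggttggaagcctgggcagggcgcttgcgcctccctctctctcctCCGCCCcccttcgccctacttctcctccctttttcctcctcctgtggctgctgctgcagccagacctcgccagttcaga

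Of the 39 genes, 25 had a promoter window in the RefSeq table, and 10 of these 25 held GGGCGG, beside 38.2% of the 27025 genes with a window of this length. Among 5 small leucine-rich proteoglycans with a window only Bgn held it. The other letters searched on both strands were TATAAA, present in 6 of 25 genes and 15.7% of all, CATTCC, in 5 of 25 and 16.6% of all, CAGACA, in 9 of 25 and 23.6% of all, and TGANTCA, in 1 of 25 and 8.97% of all. The CArG-like motif below includes the CArG box, and TATAAA can overlap the A/T core of both. A match describes letters in a window and no more.

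Of the elastic fibre genes that were not listed, 18 were measured, 11 had a lower mean with cre and 2 passed the 1.5-fold rule, both lower. These were the latent transforming growth factor beta binding proteins Ltbp4 (-1.09 ± 0.25) and Ltbp1 (-0.79 ± 0.25), which store the growth factor in the matrix. A further member of that family, Ltbp2, differed by 0.24 ± 0.06, and the elastin interface protein Emilin2 by 0.50 ± 0.13, both higher with cre. The median difference of the 18 genes was -0.06.

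All 6 contractile genes had a lower mean with cre, but by less, with a median difference of -0.33 and a mean of -0.29. None of the 6 passed the 1.5-fold rule, and the groups overlapped for each of them. Smooth muscle myosin heavy chain (Myh11) read 6.23, 6.52, 6.31 and 6.32 in LysM+/cre and 6.62, 6.51 and 7.28 in LysM+/+. LysM+/+ array 3 alone stood apart, and the difference of -0.46 ± 0.19 was -0.22 without it. Smooth muscle alpha-actin (Acta2) read 7.61, 8.07, 7.50 and 7.55 in LysM+/cre and 7.90, 8.15 and 7.96 in LysM+/+. LysM+/cre array 2 lay among the LysM+/+ arrays and the other LysM+/cre arrays below them, with a difference of -0.32 ± 0.15. Enteric gamma-actin (Actg2) showed the same arrangement at -0.33 ± 0.11. Acta2 and Actg2 are paralogs and correlated with r = 0.94, and the sources used here do not say whether their probe sets share probes.

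Transgelin (Tagln), an actin-binding protein of smooth muscle, read 7.11, 7.51, 6.99 and 6.42 in LysM+/cre and 7.18, 7.40 and 7.49 in LysM+/+. Its lowest value, on LysM+/cre array 4, set much of the difference of -0.35 ± 0.24, which was -0.16 without that array. Calponin (Cnn1), which restrains actomyosin, was also lowest on LysM+/cre array 4 and highest on LysM+/cre array 2, and differed by -0.10 ± 0.12. Desmin (Des), the intermediate filament of muscle, differed by -0.17 ± 0.20, and by 0.06 without LysM+/+ array 3. Of 30 other measured genes in a broader list of contractile, cytoskeletal and muscle genes, 23 had a lower mean with cre. The 1.5-fold rule was passed by 2 of them, both lower. These were vinculin (Vcl, -0.61 ± 0.11) and Pgm5 (-0.65 ± 0.20), which both sit at the sites where actin meets the membrane. The calponin relatives Cnn2 (0.52 ± 0.18) and Cnn3 (0.55 ± 0.18) were higher with cre by less than 1.5-fold.

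The Acta2 window is shown because CArG boxes, bound by serum response factor, are the textbook element of contractile gene promoters. Its 2 matches, starting 84 and 34 bases before the start, are to a CArG-like motif that allows 1 G or C in the A/T core. The window lies at chr19:34255324-34255623 on the minus strand, with the matches in capitals.
Acta2: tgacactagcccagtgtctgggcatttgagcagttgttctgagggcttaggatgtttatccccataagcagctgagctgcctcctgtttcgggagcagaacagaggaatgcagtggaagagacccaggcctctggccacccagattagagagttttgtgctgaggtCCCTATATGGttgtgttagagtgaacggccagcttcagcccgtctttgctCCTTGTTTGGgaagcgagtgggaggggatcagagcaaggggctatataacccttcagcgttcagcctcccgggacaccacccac

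The strict CArG box was in 0 of the 25 genes with a window and in 1.81% of all genes. Only 3 contractile genes of the list were among these 25, and the other contractile genes of the list were not searched. The CArG-like motif was in Acta2 and Fbln2 among the 25, and in 11.3% of all genes. Among 28 genes with a window in the broader list of contractile, cytoskeletal and muscle genes, 8 held the strict box: Acta1, Actc1, Cnn2, Filip1l, Ldb3, Myl9, Srf and Vcl. Of these, Vcl was lower and Cnn2 higher with cre, as given above.

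**Figure D3:**
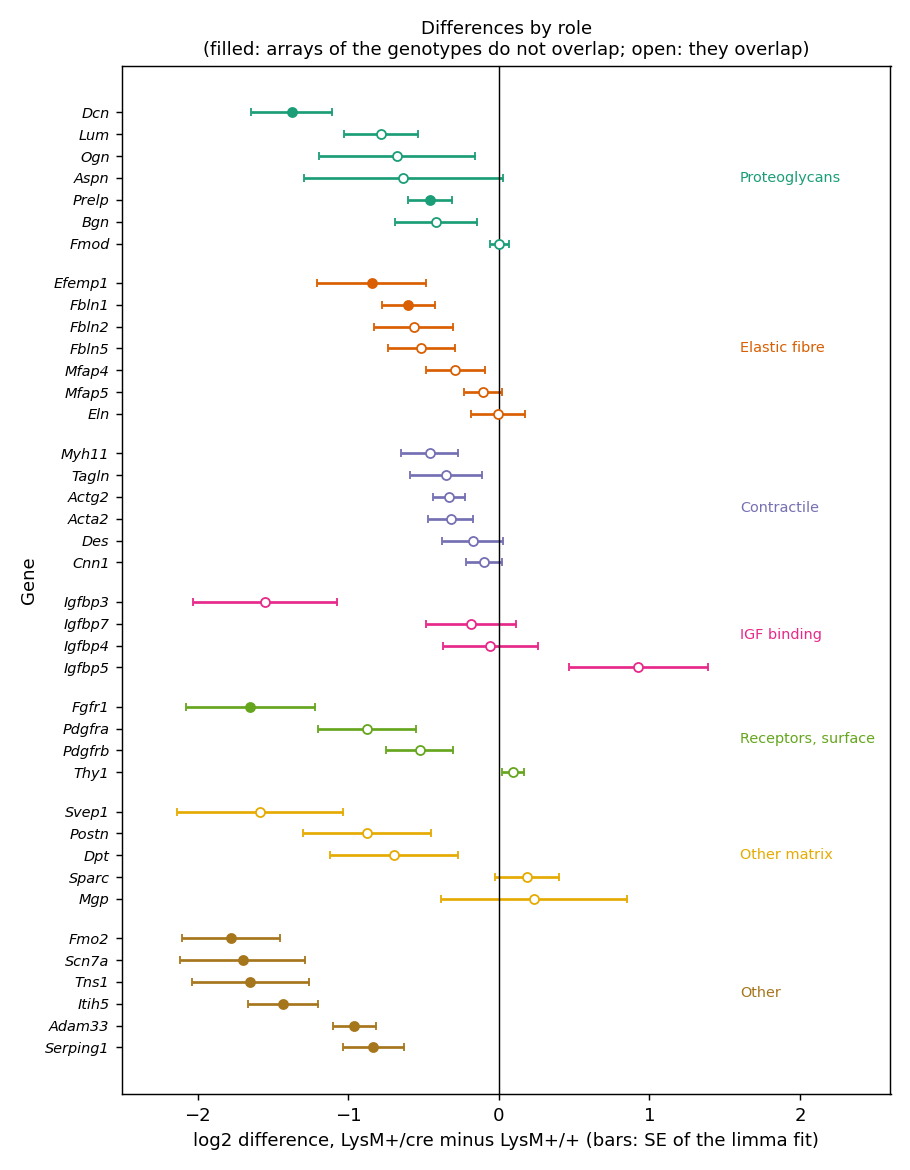
Difference of each gene (points, log2 LysM+/cre minus LysM+/+) with the SE of the limma fit (bars), by role. Filled points mark genes whose genotypes do not overlap. The contractile genes lie between -0.46 and -0.10, and the 6 genes of other roles between -1.78 and -0.83.

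The insulin-like growth factor binding proteins differed among themselves. Igfbp3, the main carrier of these growth factors in blood, read 6.60, 7.15, 6.31 and 5.99 in LysM+/cre and 8.96, 7.01 and 8.23 in LysM+/+. LysM+/cre array 2 exceeded LysM+/+ array 2, so the groups overlapped, and the mean was lower by 2.93-fold (-1.55 ± 0.48). Igfbp5, which binds to matrix, pointed the other way, with 6.56, 7.63, 6.78 and 7.10 in LysM+/cre against 7.04, 5.12 and 6.11 in LysM+/+. LysM+/+ array 2 was its lowest by about 1 log2 unit, and the difference of 0.93 ± 0.46 was 0.44 without it and 1.40 without LysM+/+ array 1. Igfbp4 and Igfbp7 differed by -0.06 ± 0.32 and -0.18 ± 0.30. Of 9 further genes of this pathway, 0 passed the 1.5-fold rule, 5 had a lower mean with cre, and the insulin receptor Insr (-0.49 ± 0.11) had the smallest unadjusted p.

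Of the receptors, Fgfr1, which binds fibroblast growth factors, read 7.08, 7.10, 5.72 and 6.68 in LysM+/cre and 7.89, 9.06 and 7.93 in LysM+/+. The groups did not overlap, LysM+/+ array 2 was the highest, and the mean was lower by 3.14-fold (-1.65 ± 0.43). Pdgfra, a platelet-derived growth factor receptor that marks fibroblasts, read 6.17, 6.83, 6.83 and 5.88 in LysM+/cre and 7.84, 7.24 and 6.83 in LysM+/+. LysM+/+ array 3 and LysM+/cre arrays 2 and 3 had the same value, and the difference was -0.88 ± 0.32. Pdgfrb, the related receptor of pericytes and fibroblasts, differed by -0.53 ± 0.22, with LysM+/+ array 2 inside the LysM+/cre range, and by -0.29 without LysM+/+ array 1. Thy1, a surface glycoprotein of fibroblasts and T cells, lay between 6.34 and 6.41 in LysM+/cre and between 6.13 and 6.38 in LysM+/+ (0.09 ± 0.07).

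Among the other matrix genes, Svep1, a large secreted adhesion protein, read 6.10, 7.04, 6.04 and 6.98 in LysM+/cre and 9.30, 6.998 and 8.08 in LysM+/+. LysM+/+ array 1 was the highest and LysM+/+ array 2 lay within the LysM+/cre range. The difference of -1.59 ± 0.55 was -1.0 without LysM+/+ array 1. Periostin (Postn), a matricellular protein of remodelling tissue, read 7.45, 7.83, 6.51 and 7.75 in LysM+/cre and 7.51, 8.93 and 8.35 in LysM+/+. The groups overlapped through LysM+/+ array 1, and the difference of -0.88 ± 0.43 was -0.54 without LysM+/+ array 2 and -1.25 without LysM+/+ array 1. Dermatopontin (Dpt), which binds decorin and collagen, differed by -0.70 ± 0.42, and by -0.44 without LysM+/cre array 3. Sparc, a collagen-binding matricellular protein, and Mgp, an inhibitor of calcification, differed by 0.19 ± 0.21 and 0.24 ± 0.62. Mgp spread widely within LysM+/+, at 10.30, 7.68 and 8.80, and its difference was -0.39 without LysM+/+ array 2 and 0.92 without LysM+/+ array 1.

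The 6 genes of other roles had the most negative group mean, -1.39, and in each of them all LysM+/cre arrays lay below all LysM+/+ arrays. Fmo2, a flavin-containing monooxygenase, read 5.89, 6.89, 6.49 and 6.84 in LysM+/cre and 8.89, 7.82 and 8.22 in LysM+/+. This was the largest fold difference among the 39 genes, 3.43-fold lower with cre (-1.78 ± 0.33). Scn7a, an atypical sodium channel, read 5.52, 6.09, 6.62 and 6.37 in LysM+/cre and 8.51, 6.94 and 8.11 in LysM+/+. LysM+/+ array 2 lay close to the LysM+/cre arrays, and the difference was -1.70 ± 0.41.

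Tensin-1 (Tns1), which links actin to integrins at focal adhesions, read 7.59, 9.23, 8.33 and 8.77 in LysM+/cre and 9.84, 10.57 and 9.98 in LysM+/+. LysM+/cre array 1 was the lowest and LysM+/cre array 2 the nearest to LysM+/+, with a difference of -1.65 ± 0.39. Itih5, an inter-alpha-trypsin inhibitor heavy chain that binds hyaluronan, read 4.89, 4.99, 4.60 and 5.38 in LysM+/cre and 6.15, 6.85 and 6.19 in LysM+/+. LysM+/cre array 4 was the nearest to LysM+/+, and the difference was -1.43 ± 0.23. Adam33, a membrane metalloprotease of mesenchymal cells, had the smallest spread of these with 6.02, 6.08, 6.18 and 6.08 in LysM+/cre, against 6.82, 7.41 and 6.91 in LysM+/+. Its difference was -0.96 ± 0.14. Serping1, the C1 inhibitor of complement, differed by -0.83 ± 0.20, with 6.70 to 7.33 in LysM+/cre and 7.56 to 8.26 in LysM+/+.

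For each role group, the deviations of its genes from their 7-array means were averaged into a score for every array. The proteoglycan scores were -0.33, 0.03, -0.59 and -0.17 in LysM+/cre, against 0.33, 0.52 and 0.21 in LysM+/+. The elastic fibre scores were -0.26, 0.07, -0.52 and -0.01 in LysM+/cre, against 0.24, 0.22 and 0.25 in LysM+/+. In both groups of genes the LysM+/cre arrays took the order 3, 1, 4 and 2 and stayed below the LysM+/+ arrays. The contractile scores were -0.17, 0.18, -0.15 and -0.35 in LysM+/cre, against 0.02, 0.15 and 0.33 in LysM+/+, so that LysM+/cre array 2 lay among the LysM+/+ arrays and array 4, not array 3, was lowest.

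**Figure D4:**
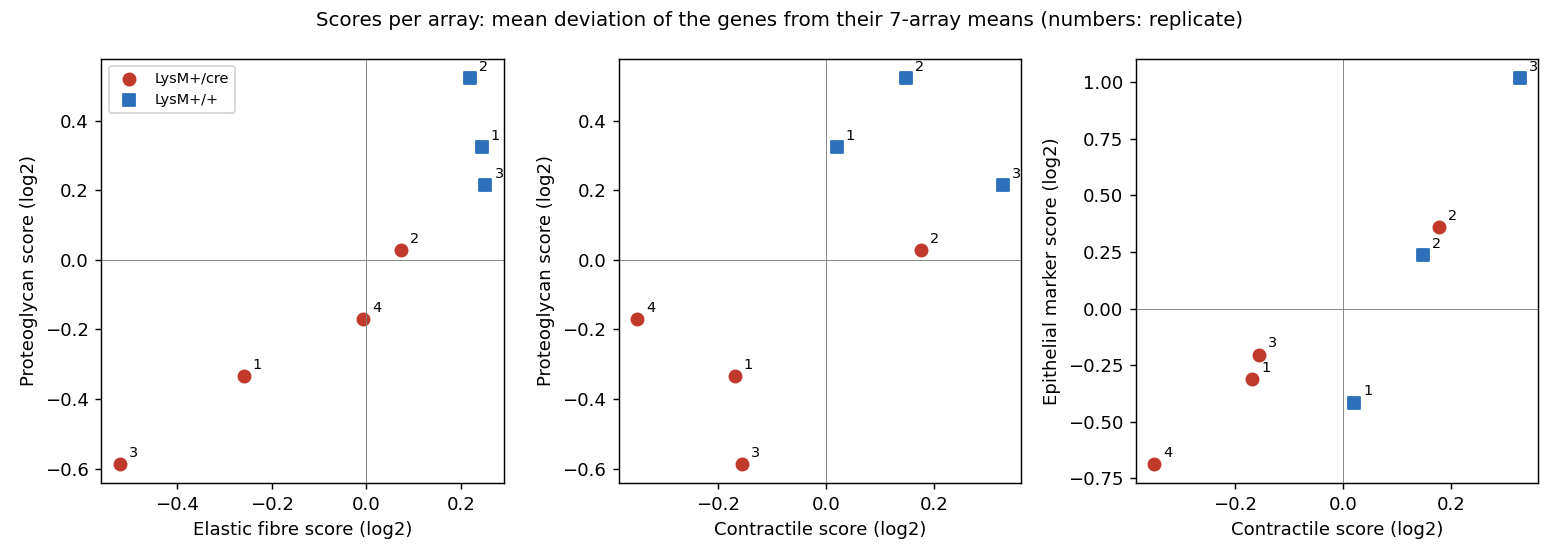
Scores per array (log2, points numbered by replicate; circles LysM+/cre, squares LysM+/+): proteoglycan against elastic fibre, proteoglycan against contractile, and epithelial marker against contractile. The first panel follows a line (r = 0.94), the second scatters more (r = 0.66), and in the third LysM+/+ array 3 is highest and LysM+/cre array 4 lowest on both axes (r = 0.91).

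Over the 7 arrays the proteoglycan and elastic fibre scores correlated with Pearson's r = 0.94 and Spearman's rho = 0.86. Without LysM+/cre array 3 and LysM+/+ array 2, the arrays farthest from the median, r was 0.96, and it was 0.86 on deviations from the genotype means. The proteoglycan and contractile scores had r = 0.66 and rho = 0.57, with r = 0.68 without the same arrays but only 0.27 within genotypes. The elastic fibre and contractile scores had r = 0.62 and rho = 0.71, with r = 0.71 without LysM+/cre arrays 3 and 1 and 0.26 within genotypes. These correlations are descriptions: the scores come from the same arrays, share their scaling and differ in mean between the genotypes, and the differences between the coefficients were not tested.

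All 15 pairs of contractile genes had a positive r, with a median of 0.64, and 14 of 15 were positive within genotypes, with the same median of 0.64. Tagln and Cnn1 were the closest pair there (r = 0.97). The proteoglycans had a median pairwise r of 0.34, and 0.16 within genotypes, where 11 of 21 pairs were positive. The elastic fibre genes had a median of 0.49, and 0.38 within genotypes. The 6 genes of other roles also had 15 of 15 positive pairs, with a median of 0.80, but 8 positive pairs and a median of 0.00 within genotypes. Over all 741 pairs the median was 0.43 with 596 positive, where the median over all pairs of genes on the array was 0.0. Within genotypes the median of the 741 pairs was 0.25 with 490 positive, and the median over all genes was not computed there.

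**Figure D5:**
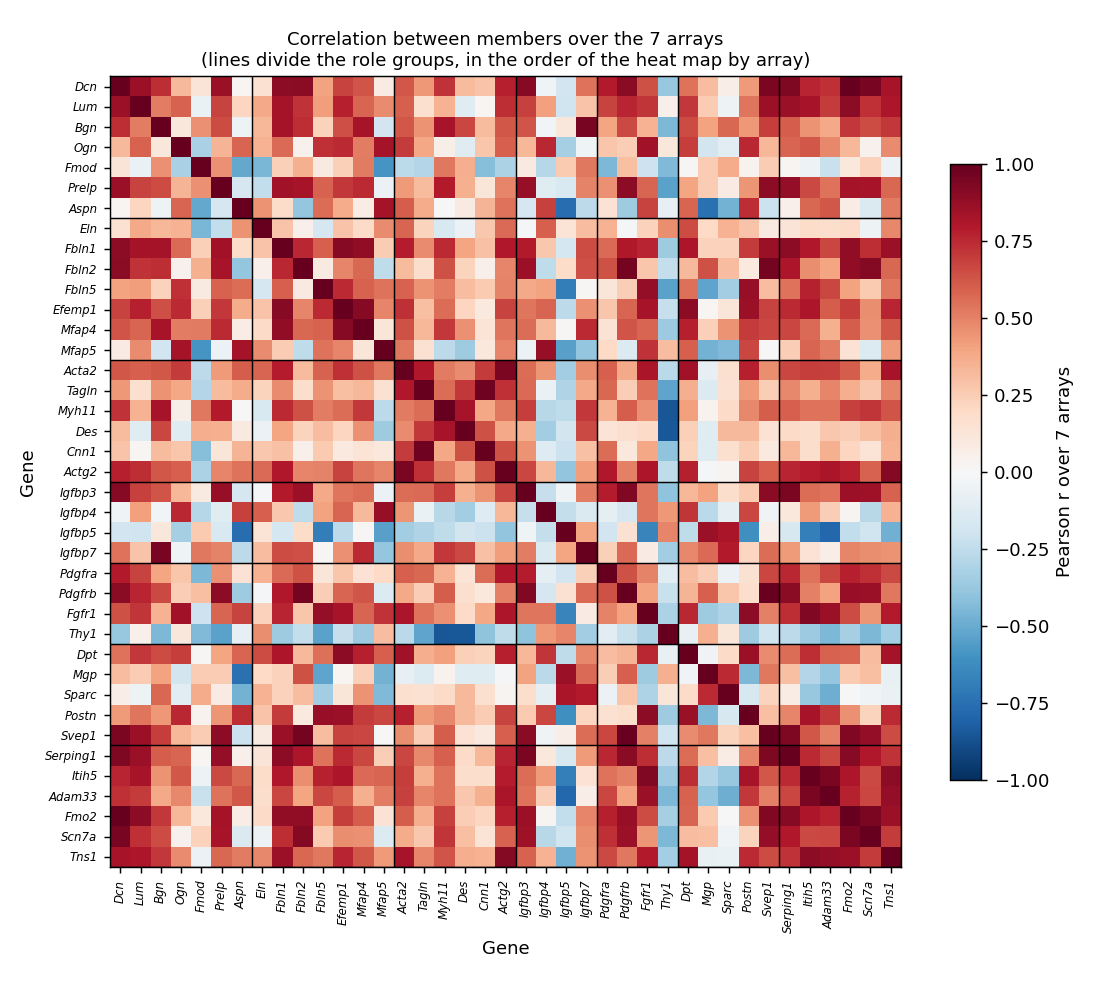
Pearson r over the 7 arrays between all pairs of the 39 genes, ordered and divided by role as in the heat map by array. The contractile block on the diagonal is red throughout, and the rows of Fmod, Igfbp5, Thy1, Mgp and Sparc are pale or blue against many other genes.

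Individual pairs crossed the role groups. Dcn had its closest partner in Fmo2 (r = 0.99), Svep1 in Pdgfrb (r = 0.99) and Bgn in Igfbp7 (r = 0.95), as the matrix of correlations shows. Igfbp5 and Mgp, neither of which passed the 1.5-fold rule, had r = 0.86. Thy1 and Igfbp5 had a negative r with the mean of the other genes over the 7 arrays (-0.32 and -0.30), but a positive one within genotypes (0.32 and 0.63).

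Collagens, the fibrils that these proteoglycans bind, were measured for 20 genes outside the list. Of these, 15 had a lower mean with cre, 0 passed the 1.5-fold rule, and the median difference was -0.07. The main fibrillar chains Col1a1 (0.04 ± 0.16), Col1a2 (-0.03 ± 0.15) and Col3a1 (0.17 ± 0.18) differed by about their SE or less. Col1a1 read 6.84, 7.30, 6.80 and 7.33 in LysM+/cre and 7.12, 6.99 and 6.99 in LysM+/+, so that the LysM+/+ arrays lay inside the LysM+/cre range. The smallest unadjusted p belonged to Col6a1 (-0.35 ± 0.14), Col15a1 (-0.45 ± 0.20) and Col8a1 (-0.23 ± 0.14). The collagen score followed the score of all 39 genes with r = 0.81 over the 7 arrays and 0.88 within genotypes, but with r = 0.40 without LysM+/cre arrays 3 and 1.

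Markers of other cell types also differed in level between arrays, and their part in the results above was not tested. Of 16 measured fibroblast markers outside the list, some of them collagens already counted above, 10 had a lower and 6 a higher mean with cre. The 1.5-fold rule was passed by 2, both lower, Fap (-0.73 ± 0.15) and Cd34 (-0.81 ± 0.24). Of those that were higher, Pi16 (0.44 ± 0.14) had the smallest unadjusted p. The mean log2 signal of the 16 markers ran from 6.10 to 6.38 on the LysM+/cre arrays and from 6.39 to 6.42 on the LysM+/+ arrays. Their score correlated with that of all 39 genes with r = 0.96, also within genotypes (r = 0.96). The 6 smooth muscle markers outside the list, of which 5 were lower, ran from 5.46 to 5.67 in LysM+/cre and from 5.64 to 5.86 in LysM+/+, and their score followed the contractile score with r = 0.95. High correlations were not limited to stromal lists. The macrophage score had r = 0.07 with the proteoglycan, 0.16 with the elastic fibre and -0.34 with the contractile score. Within genotypes these were 0.89, 0.80 and -0.10. The T and NK cell score had r = 0.73 with that of all 39 genes, and 0.24 within genotypes. Mesothelial markers had r = 0.70 with the contractile score, and 0.78 within genotypes.

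Epithelial markers were lower with cre in 20 of 21 genes, 5 of them past the 1.5-fold rule: Zg16, Clca1, Car4, Lypd8 and Slc26a3. Their scores were -0.31, 0.36, -0.20 and -0.69 in LysM+/cre and -0.42, 0.24 and 1.02 in LysM+/+, and the contractile score correlated with them at r = 0.91, within genotypes too (r = 0.91), and at r = 0.78 without LysM+/cre array 4 and LysM+/+ array 3. The proteoglycan and elastic fibre scores correlated with the epithelial one at r = 0.41 and 0.42, and at 0.06 and 0.13 within genotypes. Endothelial markers were lower in 14 of 15 genes and pericyte markers in 8 of 10, with 0 past the 1.5-fold rule in either list. Neutrophil markers were higher in 12 of 12, and 1 of them, Mmp9 (1.35 ± 0.45), passed the 1.5-fold rule. Their scores were -0.40, 0.39, 1.497 and -0.28 in LysM+/cre and 0.40, -1.33 and -0.27 in LysM+/+, so that LysM+/cre array 3 was highest. Of 9 measured T and NK cell markers, 6 were lower and 3 higher with cre. The 1.5-fold rule was passed by 1 of these, Cd4, which was lower (-0.70 ± 0.29).

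Outside the list, genes with a range of at least 1 log2 unit numbered 2741. Those whose signal was most like the score of all 39 genes were the plasma copper protein ceruloplasmin (Cp, r = 0.96), Arhgap42 (r = 0.95), Fap (r = 0.95), the predicted gene Gm13283 (r = 0.95) and Ltbp4 (r = 0.95). The others of the first 20 included the tenascin Tnxb, the chemokine Ccl2, the receptor Fgfr2, the protease Plau and the immediate early genes Egr1 and Ier2. Bckdhb, an enzyme subunit of branched-chain amino acid breakdown, was first for both the proteoglycan (r = 0.99) and the elastic fibre score (r = 0.95). Most like the contractile score were Lypd8 (r = 0.96), Ptprk (r = 0.96), Mapk13 (r = 0.94) and Hhip (r = 0.94), and the first 10 also held Slc26a3, an epithelial anion exchanger, and Rab25. These genes were ranked over 7 arrays that include the genotype difference, and the median r of the 2741 genes with the scores ran from 0.16 to 0.22.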

How the data were processed

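The authors deposited log2 intensities per probe set. The series' design text names Affymetrix Expression Console for this step, and the submitters' processing notes add Transcriptome Analysis Console. How probes were summarised and background was handled, and with which versions, is not stated in those sources. Array medians lay between 5.16 and 5.22, and no further scaling was applied. Of 41345 probe sets, 23521 had 1 symbol in the platform annotation, 1814 had several and 16010 had none listed. The brightest probe set per gene was kept (1082 genes had several), which left 22180 genes. All 39 measured genes kept their symbol in RefSeq (GRCm38.p6), whose promoter windows and gene order were used.

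The genes, lists and naming rule were chosen with earlier results of these data known. Every listed gene is described. Outside the list, genes past the 1.5-fold rule, otherwise up to 3 of smallest unadjusted p per pathway list, the genes most like each score, and Rictor and Lyz2 could be named. Further genes named for contrast (the fibrillar collagens, Ltbp2, Emilin2, Cnn2, Cnn3, Pi16 and Itgam) were chosen after their values were seen.

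The genotype contrast was fitted with limma 3.58.1 (R 4.3.3) on all 7 arrays without covariates, two-sided, with Benjamini-Hochberg adjustment over all genes. The fit was tested on simulated data, 10 sets with 200 of 22180 genes changed, with calls at an adjusted p under 0.05. It recovered 75.2% of 2-fold and 94.6% of 4-fold changes, and 5.69% of calls were false. The simulated noise was normal and independent between genes, with the SD of each gene within genotypes. Variation that genes share between arrays was not simulated, so these rates need not hold for the deposited arrays. Alternatives were other scalings, all probe sets of a gene, no dim genes, each array left out in turn, limma-trend, array weights and a replicate block. Matplotlib 3.10.9 drew the figures.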

Additional observations from a re-analysis of the deposited data

Results flagged for a closer look

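Among 39 genes and 8 scores, looked at for 1 LysM+/cre array far from the other 3, 2 stood out, and chance gives about 1 in 20 such groups. Fibromodulin (Fmod) read 5.38 on LysM+/cre array 4, where the nearest of the other arrays read 5.29, and the gap made up 0.859 of the range of the group. Mfap5 read 5.57 on LysM+/cre array 3, where the nearest read 5.76, with a gap of 0.858 of the range. Both gaps are small on the log2 scale, and neither gene was called different between genotypes.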

How the results depend on the processing

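Over all alternatives run, counts of the listed genes past the 1.5-fold rule ran from 11 to 16, and 8 of the 13 genes (Dcn, Fgfr1, Serping1, Itih5, Adam33, Fmo2, Scn7a and Tns1) passed it in each of 14 alternatives. Of 542 values for single genes, 506 counted as the same. A gene past the rule had to stay past it, and the difference of any other gene had to shift by less than its SD within genotypes. Leaving out 1 array always shifts a difference by less than that SD, and limma-trend leaves it unchanged. In those settings a gene not past the rule could therefore only count as the same or newly pass. Aspn counted as the same although its sign turned, so the 506 do not measure stability. In 19 values a gene no longer passed the rule, and in 16 it newly passed. The remaining 1 shifted by more without passing: Prelp differed by -0.23 as the mean of its probe sets. Fbln1 no longer passed the rule in 6 settings, Pdgfra and Svep1 in 5 each, Igfbp3 in 2 and Lum in 1. Leaving out 1 array turned the sign of Fmod, Aspn, Eln, Mfap5, Des, Igfbp4, Igfbp7 and Mgp, none of which was called. The count over all genes ran from 337, without LysM+/cre array 1, to 808, without LysM+/+ array 1, where it had been 501. With array medians set equal it split into 285 lower and 244 higher, against 323 lower and 178 higher as deposited. On deviations from the genotype means the correlations with the contractile score were 0.27 (proteoglycans) and 0.26 (elastic fibre). The cause was not tested in any of these. Means with 1 array left out ran from -0.72 to -0.53 for all 39 genes, from -0.72 to -0.51 for proteoglycans, from -0.50 to -0.30 for elastic fibre genes and from -0.39 to -0.21 for contractile genes.

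The labels do not say whether replicate numbers pair the samples. Deviations of same-numbered samples correlated at -0.11, 0.12 and 0.10. Differently numbered samples were not compared in this way, so these values do not settle it. With the replicate number as a block, 488 genes and 12 listed genes passed the 1.5-fold rule, and the means were -0.64 for all 39 genes, -0.65 for proteoglycans, -0.47 for elastic fibre genes and -0.21 for contractile genes. The adjusted threshold was passed by 0 genes in each setting (limma). Signal over background limits Fmod, Aspn, Mfap4 and Actg2, which lay below the median gene.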
